A study of Mus musculus with 6 samples.

Results

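The 8 genes described here, Slpi, Serpinb5, Cdsn, Trim29, Bnc1, Blnk, Sigirr and Xdh, were chosen by their high signal in Per2m/m mouse embryonic fibroblasts that had been transfected with an H-Ras and SV40T expressing vector. They are 8 of the 16718 named genes that 1 or more of the 6 arrays read well above background, and 9 probes of the array carry their names. Since they were selected on the signal of the transfected Per2m/m array, every comparison that uses this array is given as a description, with no test.

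The study set fibroblasts of the ICR strain, transfected with that vector or given a mock transfection, side by side in 3 genotypes: Per2m/m, Clk/Clk and wild type. The series design calls the Clk/Clk cells mutant in Clock, and the labels do not say what the Per2m/m alteration is. H-Ras is a small GTPase that drives growth signalling, and SV40T is a viral protein that binds the tumour suppressors p53 and RB. All 6 groups are embryonic fibroblasts kept in serum-containing medium. Each group was 1 sample on 1 array, so no spread between samples of a group was measured, and no source states how many embryos or cultures a sample came from. Precision is limited by this number of arrays.

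Among the 6 arrays, that of the transfected Per2m/m cells was the least like the rest. Its levels correlated with theirs at 0.852 to 0.89 across genes, against median correlations of 0.931 to 0.945 for each of the other 5 arrays, and 49.3% of its spots were well above background, against 53.5% to 57.3% on theirs. Xist, Ddx3y and Eif2s3y, an X-linked and a pair of Y-linked genes, were not well above background on it, at levels of −6.18, −6.74 and −6.85, against −0.53, −0.05 and −0.81 in mock Per2m/m cells. Xist was also not well above background on either Clk/Clk array, and Uty, a further Y-linked gene, on neither Per2m/m array. The source name of this sample also does not mention SV40, while its title and its transfection label do. Whether the transfected and mock Per2m/m samples differ in more than the vector was not tested, and every Per2m/m response below rests on this array.

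Slpi, Serpinb5, Cdsn, Trim29 and Bnc1 are known chiefly from skin, gland and airway epithelium, where secreted protease inhibitors guard the tissue against proteases, corneodesmosomes hold the outer skin cells together and nuclear factors keep basal cells dividing. Blnk and Sigirr belong to immune signalling, Blnk in B cells above all and Sigirr in epithelium and immune cells, and Xdh to purine breakdown and to milk secretion by the mammary gland. Fibroblasts of the embryo are not a usual site of most of these genes.

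A level below is the log2 processed signal of a probe less the log2 75th percentile of its array, so a level of 0 equals the 75th percentile. Well above background is the scanner software's own call, and a probe without it has only a bound on that array. All 8 genes were well above background in transfected Per2m/m cells, where 80.7% of the 16718 genes were. Below, all genes means these 16718, which were kept because at least 1 array read them well above background. In mock Per2m/m cells 5 of the 8 were well above background, in transfected Clk/Clk cells 5 and in mock Clk/Clk cells 5. In transfected wild type cells 6 were, and in mock wild type cells 6. Of the 16718 genes, 85.9% to 90.9% were well above background on these arrays. Serpinb5 and Trim29 reached that call in transfected Per2m/m cells and on no other array, whereas Slpi, Cdsn, Sigirr and Xdh were on all 6. Serpinb5 and Trim29 are thus among the genes kept through the transfected Per2m/m array alone.

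The 8 genes were gathered as epithelial genes gained in transfected Per2 mutants, and they differed in how far that name covers them. Of the 8 genes, 7 were brightest on the transfected Per2m/m array. There 6 exceeded every other array by 2-fold or more, as did 8.19% of the 16718 genes. Bnc1, although higher in transfected than in mock Per2m/m cells, was brightest in transfected Clk/Clk cells, 5.17-fold above transfected Per2m/m cells. Xdh lay just inside, at 1.84-fold above the next array, mock Clk/Clk cells, and Sigirr came next with a margin of 23.7-fold. Blnk is known for B cells rather than epithelium.

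**Figure D1:**
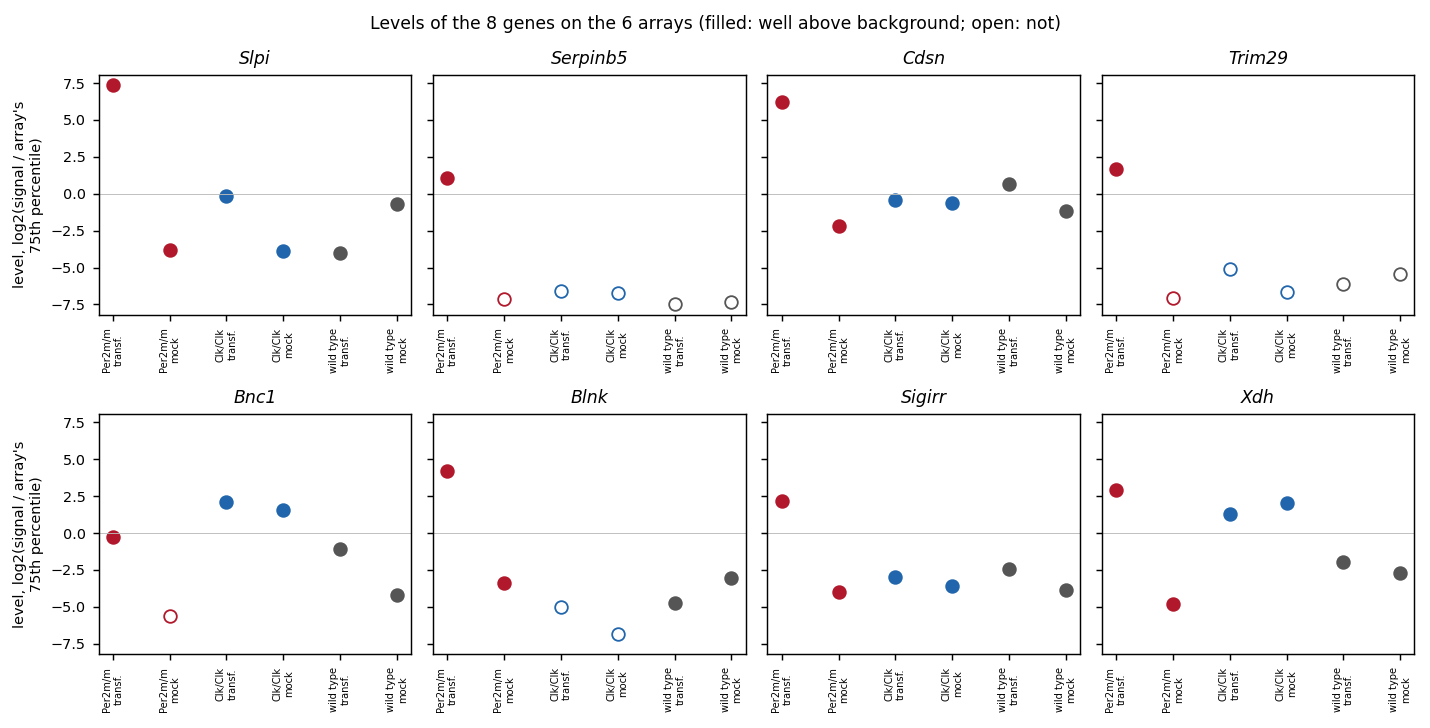
The panels give the level of each of the 8 genes (y axis, log2 of signal over the array's 75th percentile) on each of the 6 arrays (x axis), with filled points well above background and open points not. The transfected Per2m/m point is the highest in 7 panels, and in the Bnc1 panel both Clk/Clk points, at 2.11 and 1.58, lie above it.

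Slpi encodes a secreted inhibitor of neutrophil elastase and related proteases, built of WAP domains. Its probe lies on chromosome 2, 164179849 to 164179908 (mm9, minus strand), at position 773 of the transcript. The signal was 68218 in transfected and 38.8 in mock Per2m/m cells, 333.9 in transfected and 26.5 in mock Clk/Clk cells, and 39.8 in transfected and 299.5 in mock wild type cells. As levels these were 7.34 and −3.80 in Per2m/m, −0.18 and −3.85 in Clk/Clk, and −3.99 and −0.71 in wild type cells. Transfected Per2m/m cells were far above the rest, transfected Clk/Clk and mock wild type cells formed a middle pair, and the remaining 3 arrays lay within a narrow band at the bottom. The response, transfected minus mock, was 11.14 in Per2m/m cells (2260-fold), the highest of all 16718 genes. It was 3.67 in Clk/Clk cells (12.7-fold) and −3.28 in wild type cells, where the transfected array was 9.69-fold lower. Slpi was thus at least 2-fold higher after transfection in both mutant genotypes and lower in wild type cells.

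The stretch before the start of 3 of the genes is shown because each holds a different one of the letter patterns that were searched for. Sequences are RefSeq's for GRCm38.p6, the 250 bases before the annotated start on the gene's strand, with the matched letters in capitals. The Slpi stretch, chr2:164356508-164356757 on the minus strand, holds CACGTG, the E-box that the clock factors CLOCK and BMAL1 can bind, 146 bases before the start. The Serpinb5 stretch, chr1:106860925-106861174 on the plus strand, holds TGANTCA 140 bases before the start, a pattern wider than the AP-1 element, and the match here, TGAATCA, lacks the C or G that this element has in the middle. The Bnc1 stretch, chr7:81992300-81992549 on the minus strand, holds GCCNNNGGC, the AP-2 motif, 173 bases before the start.
Slpi: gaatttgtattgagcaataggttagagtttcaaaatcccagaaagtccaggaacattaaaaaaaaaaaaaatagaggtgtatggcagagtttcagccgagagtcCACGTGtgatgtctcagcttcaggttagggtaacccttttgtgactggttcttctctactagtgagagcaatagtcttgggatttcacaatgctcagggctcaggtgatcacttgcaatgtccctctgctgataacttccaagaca
Serpinb5: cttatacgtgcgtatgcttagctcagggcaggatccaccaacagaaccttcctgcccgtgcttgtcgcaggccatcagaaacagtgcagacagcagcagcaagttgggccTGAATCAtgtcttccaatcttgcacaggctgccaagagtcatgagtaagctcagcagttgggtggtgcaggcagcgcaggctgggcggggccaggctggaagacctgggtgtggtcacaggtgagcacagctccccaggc
Bnc1: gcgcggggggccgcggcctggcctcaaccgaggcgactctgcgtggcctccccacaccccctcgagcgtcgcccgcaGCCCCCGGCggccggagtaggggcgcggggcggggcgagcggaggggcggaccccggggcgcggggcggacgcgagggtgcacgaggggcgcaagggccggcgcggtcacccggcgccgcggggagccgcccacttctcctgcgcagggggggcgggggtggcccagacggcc
Of the 8 genes, 5 matched the promoter table, with 6 promoters in all since Cdsn had 2 entries, and Trim29, Xdh and Sigirr are named only. Over the full window of 250 bases before to 50 after the start, CACGTG stood in 1 of the 6 promoters and in 7.15% of all 32851, TGANTCA in 1 and in 7.81%, TGACTCA, the AP-1 element itself, on either strand in 0 and in 5.2%, and GCCNNNGGC in 1 and in 16.6%. AACNNGTT, a motif of Grainyhead-like factors, stood in 0 of the 6 and in 4.2% of all. Apart from TGACTCA, which was searched on both strands, each pattern reads the same on both strands, the 3 matches stand before different genes, and a match is a description of letters only. The Bnc1 promoter was 83.3% G and C, a share reached by 0.292% of all promoters, while the Slpi promoter was 43.3%, below the median of 52.7%.

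Serpinb5 encodes maspin, a clade B serpin of mammary and prostate epithelium that does not inhibit proteases in the usual serpin manner. Its probe lies on chromosome 1, 108778585 to 108778644 (mm9, plus strand), at position 1224 of the transcript. The signal was 891.4 in transfected and 3.95 in mock Per2m/m cells, 4.01 in transfected and 3.57 in mock Clk/Clk cells, and 3.61 in transfected and 2.99 in mock wild type cells. On 5 of the arrays the probe was thus not well above background, and these 5 values have no order. The Per2m/m response was at least 67.3-fold, measured against the dimmest signal that the mock array read well above background. This bound holds for the processing used here only. With another background correction, normexp, the measured response was 4.24 (log2), against 8.18 here. No fold can be given for Clk/Clk or wild type cells.

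Cdsn encodes corneodesmosin, a glycoprotein that binds the cells of the outer skin to each other at modified desmosomes. The array's probe sits on chromosome 17, 35693799 to 35693858 (mm9, plus strand). The signal was 31204 in transfected and 116.5 in mock Per2m/m cells, 278.9 in transfected and 246.1 in mock Clk/Clk cells, and 982.8 in transfected and 219.0 in mock wild type cells. Transfected Per2m/m cells were highest and transfected wild type cells second, with the other 4 arrays lower. The response was 8.43 in Per2m/m cells (345-fold), 0.19 in Clk/Clk cells (1.14-fold) and 1.80 in wild type cells (3.48-fold). Of the pair of mock mutant cultures, Per2m/m cells were 2.07-fold below mock wild type cells and Clk/Clk cells were 1.45-fold above them.

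Trim29 encodes a tripartite motif protein without a RING finger that marks basal epithelial cells. The array reads it on chromosome 9, 43144032 to 43144092 (mm9, plus strand). The signal was 1315 in transfected and 4.13 in mock Per2m/m cells, 11.2 in transfected and 3.78 in mock Clk/Clk cells, and 9.36 in transfected and 11.3 in mock wild type cells. As for Serpinb5, the 5 values outside transfected Per2m/m cells were not well above background. The Per2m/m response was at least 99.3-fold, and the gap to transfected wild type cells was at least 138-fold. With normexp the measured Per2m/m response was 4.63 (log2), against 8.68 here, so these bounds also hold for this processing only.

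Bnc1 encodes basonuclin 1, a zinc finger protein of dividing basal keratinocytes and of germ cells. The probe is placed on chromosome 7, 89111978 to 89112037 (mm9, minus strand). The signal was 351.2 in transfected and 10.8 in mock Per2m/m cells, 1628 in transfected and 1133 in mock Clk/Clk cells, and 295.1 in transfected and 26.6 in mock wild type cells. Both Clk/Clk arrays were brightest, transfected Per2m/m and transfected wild type cells were near each other at 1.79-fold apart, and mock Per2m/m cells were not well above background. The response was at least 26.5-fold in Per2m/m cells, 1.45-fold in Clk/Clk cells and 8.61-fold in wild type cells. The wild type response of Bnc1, 3.11, was the highest of the 8 genes in that genotype. Its Per2m/m response of 5.38 had the widest relative range over the alternative settings, from 2.60 with another background correction (normexp) to 5.66.

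Blnk encodes the B cell linker, an adaptor that joins the kinase Syk to its downstream enzymes below the B cell receptor. The probe reads chromosome 19, 41003426 to 41003485 (mm9, minus strand). The signal was 7815 in transfected and 52.2 in mock Per2m/m cells, 11.9 in transfected and 3.27 in mock Clk/Clk cells, and 24.3 in transfected and 59.2 in mock wild type cells. Mock Per2m/m and mock wild type cells had similar low signals, and neither Clk/Clk array was well above background. The response was 7.59 in Per2m/m cells (193-fold) and −1.65 in wild type cells, where the transfected array was 3.14-fold lower. With the other background correction, normexp, the wild type response was −0.81, under 2-fold.

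Sigirr encodes an IL-1 receptor relative with a single immunoglobulin domain that dampens Toll and IL-1 receptor signalling. It was read on chromosome 7, 148277090 to 148277149 (mm9, minus strand). The signal was 1883 in transfected and 34.6 in mock Per2m/m cells, 48.8 in transfected and 31.4 in mock Clk/Clk cells, and 119.7 in transfected and 34.6 in mock wild type cells. The 3 mock arrays were within a narrow band, and each transfected array was above its own mock array. The response was 6.13 in Per2m/m cells (69.9-fold), 0.65 in Clk/Clk cells (1.57-fold) and 1.42 in wild type cells (2.68-fold), which normexp lowered to 0.56, under 2-fold.

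Xdh encodes xanthine dehydrogenase, the enzyme of the last steps to uric acid, which also helps to wrap milk fat in the mammary gland. It had 2 probes, shown here by their first 30 bases because their readings differed.
A_51_P312121: ttgagtaattctgggtgattctgagtccat
A_55_P2160825: gataatcagatctccagacagtttgtgaac
The first, on chromosome 17 at 74233511 to 74233570 (mm9, minus strand), is matched to position 4264 of a RefSeq transcript. The second, at 74283658 to 74283717, is matched to position 550 of a different, Ensembl transcript. The second was not well above background on any of the 6 arrays, with signals of 2.83 to 9.24, so Xdh is represented by the first. The signal of the first was 3180 in transfected and 19.6 in mock Per2m/m cells, 931.5 in transfected and 1561 in mock Clk/Clk cells, and 161.1 in transfected and 77.0 in mock wild type cells. Transfected Per2m/m cells and both Clk/Clk cultures were high, wild type cells were intermediate, and mock Per2m/m cells were lowest. The response was 7.71 in Per2m/m cells (209-fold), −0.73 in Clk/Clk cells, where the transfected array was 1.66-fold lower, and 0.70 in wild type cells (1.62-fold).

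Across the 8 genes, the Per2m/m response was at least 2-fold higher in 8 and lower in 0, as the choice of the genes fixed, while of all genes 18.7% were higher and 20.7% lower by that size. With Serpinb5, Trim29 and Bnc1 at their bounds, the median of the 8 was 7.11, from 4.73 to 11.14, against 0.12 for all genes. In Clk/Clk cells 1 of the 8, Slpi, was at least 2-fold higher and 0 were lower, against 3.74% higher and 4.12% lower of all genes, with a median of 0.53 over the 5 genes with a value, against 0.02. In wild type cells 3 were higher, Cdsn, Bnc1 and Sigirr, and 2 were lower, Slpi and Blnk, against 7.53% and 11.8% of all genes. The median was 1.06 over the 6 genes with a value, against 0.00. The medians of all genes take measured differences without bounds and include genes dim on both arrays. Taken that way, the medians of the 8 were 7.95 in Per2m/m, 0.59 in Clk/Clk and 0.30 in wild type cells. Of these wild type calls, normexp ended those of Sigirr and Blnk, leaving 2 higher and 1 lower. In Clk/Clk cells, then, Slpi alone of the genes with a value passed 2-fold as measured. In wild type cells all with a value but Xdh did, in both directions. Serpinb5 and Trim29 had no value in either genotype, and Blnk had none in Clk/Clk cells. The brighter array of a counted pair had to be well above background. With both arrays of the pair required to be so, the Per2m/m count was 5, since Serpinb5, Trim29 and Bnc1 were dim in mock cells.

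**Figure D2:**
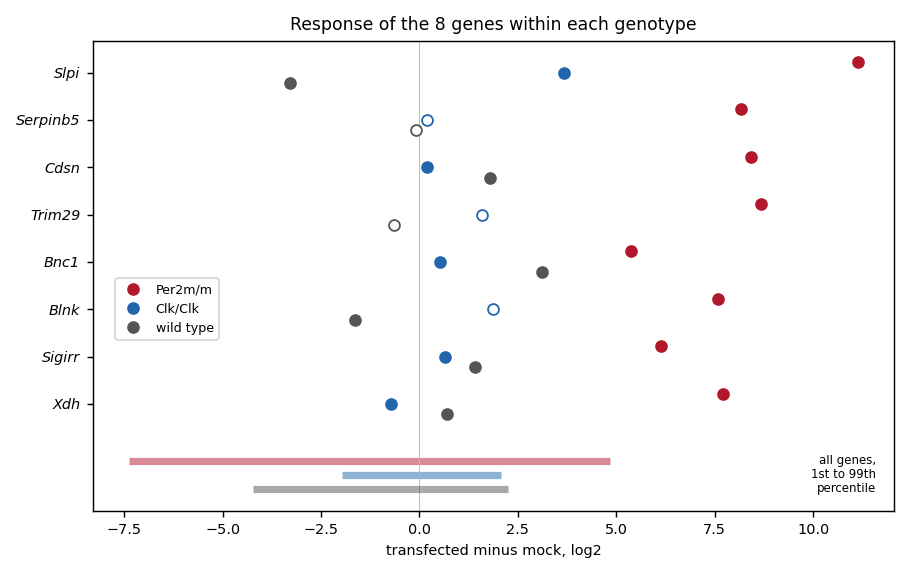
The points give the response of each gene (x axis, transfected minus mock, log2) in Per2m/m, Clk/Clk and wild type cells, open where neither array was well above background, and the bars at the bottom span the 1st to 99th percentile of all genes. The Per2m/m points run from 5.38 for Bnc1 to 11.14 for Slpi, those of Serpinb5, Trim29 and Bnc1 against mock values not well above background, and Slpi has its Clk/Clk and wild type points on opposite sides of 0.

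The mock Per2m/m array read some of the 8 genes at least 2-fold lower than the mock wild type array and none that much higher. Genes gathered as gained in transfected Per2m/m cells can favour low mock Per2m/m values. With 1 array on each side, the difference was not tested. By 2-fold or more, 0 of the 8 were higher and 4 lower in mock Per2m/m than in mock wild type cells, against 4.38% and 4.33% of all genes. The 4 were Slpi, 8.5-fold lower, Xdh, 4.33-fold, Cdsn, 2.07-fold, and Bnc1, whose measured difference was −1.43 and whose bound was at least 1.72-fold. With the other background correction 1 of these 4 differences was still at least 2-fold.

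Mock Clk/Clk cells were far above mock wild type cells in Bnc1 and Xdh. Bnc1 was 55.1-fold higher and Xdh 26.2-fold higher, while Slpi was 8.76-fold lower and Blnk at least 2.96-fold lower, so that 2 of the 8 were higher and 2 lower, against 10.1% and 10.7% of all genes. With normexp the Blnk difference was −0.64, and 1 of the 8 was lower. After transfection both were higher again. In transfected Clk/Clk over transfected wild type cells Bnc1 was 9.27-fold, Xdh 9.72-fold and Slpi 14.1-fold higher and Cdsn 2.10-fold lower, giving 3 higher and 1 lower against 13.2% and 11.2% of all genes.

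Between the transfected cultures, 7 of the 8 genes were at least 2-fold higher in Per2m/m than in wild type cells and 0 lower, where 14.7% of all genes were higher and 16.3% lower, and the choice of the genes used this array. Slpi differed by 2580-fold, Blnk by 485-fold, Trim29 by at least 138-fold, Serpinb5 by at least 93.9-fold, Cdsn by 47.9-fold, Xdh by 29.8-fold and Sigirr by 23.7-fold. Against transfected Clk/Clk cells 7 were higher and 1 lower, with 20.9% and 19.5% of all genes past the same size. The lower gene was Bnc1, and Xdh was the nearest of the higher ones at 3.06-fold.

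The arrays that the choice did not use allow a test of transfection and of the Clk/Clk genotype. With limma, genotype and transfection were fitted as additive terms on the 5 arrays other than transfected Per2m/m, with 1 residual degree of freedom, and p-values were adjusted over all 16718 genes by the Benjamini-Hochberg method. Transfected minus mock gave 0 of 16718 genes below an adjusted p of 0.05 (0.0%), 591 at an unadjusted p under 0.05, and none of the 8 genes among those 591. Serpinb5 and Trim29 were dim on all 5 arrays, so their fitted values are not given. The estimates of the other 6 genes ran from −0.02 ± 0.49 (SE) for Xdh to 1.82 ± 0.76 for Bnc1, with limma adjusted p-values of 0.934 to 1.0. Slpi, with opposite responses in Clk/Clk and wild type cells, had 0.20 ± 1.94, the widest error of the 6.

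For Clk/Clk minus wild type, limma called 0 of 16718 genes (0.0%), with 2506 at an unadjusted p under 0.05. Xdh and Bnc1 were among those 2506. Xdh was higher by 4.00 ± 0.49 (SE, limma adjusted p = 0.146) and Bnc1 by 4.50 ± 0.76 (SE, limma adjusted p = 0.194), each higher in both Clk/Clk arrays than in both wild type arrays. Neither passed the adjusted threshold of 0.05. For Slpi, Cdsn, Blnk and Sigirr the limma adjusted p-value was 0.412 to 0.94.

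The near relatives of the 8 genes and the markers of the cell types they are known from were read on the same arrays. A gene is called measurable where at least 1 array read it well above background, and dim otherwise. Some measurable genes were dim on both Per2m/m arrays. These are counted neither higher nor lower, but enter the median of a list by their measured difference. The 21 lists leave the 8 genes out and are described by counts at 2-fold in the Per2m/m response, to be read against the 18.7% and 20.7% above. Counts and shares take measured differences, so a gene dim on an array can be counted with a bound under 2-fold. Such genes were Krt6b, at least 1.68-fold higher, and Lum, Laptm5 and Uox, at least 1.4-fold, 1.24-fold and 1.21-fold lower. In cultures, fewer cells of a type and less RNA per cell cannot be told apart. Of 12 WAP-domain relatives of Slpi 6 were measurable, and 2 were higher, Wfdc18 by at least 7.08-fold and Wfdc21 by at least 2.18-fold, while Wfdc10 was at least 6.85-fold lower. Of the clade B serpins near Serpinb5, 10 of 19 were measurable and they split evenly, 3 higher and 3 lower. Serpinb1a, an elastase inhibitor, was 4.99-fold and Serpinb1b at least 4.09-fold higher, whereas Serpinb2, the plasminogen activator inhibitor PAI-2, was at least 31.7-fold lower and Serpinb6b at least 10.2-fold lower.

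The desmosome, on which corneodesmosin acts, went mostly the other way. Of 14 components 8 were measurable, 1 was higher and 5 lower. Of its cadherins, Dsc2 was at least 2.94-fold lower, and the other 6, among them Dsg1a, Dsg3, Dsc1 and Dsc3, were dim on all 6 arrays. Perp, a membrane protein of desmosomes, had a level of −6.67 in transfected and 3.31 in mock Per2m/m cells, at least 240-fold lower, and Dsp was at least 2.94-fold lower, while the plakophilin Pkp4 was 2.55-fold higher. Of 15 kallikreins, membrane serine proteases and their inhibitors, 9 were measurable, 2 were higher and 1 lower. Cst6, a cystatin of the skin, was 11.5-fold and Klk10 3.36-fold higher, and Klk8 was 51.5-fold lower, while Klk5, Klk7 and Klk14, which degrade corneodesmosin, were dim on all arrays.

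Of 19 epithelial transcription and splicing regulators 14 were measurable, 6 were higher and 2 lower, with a median of 0.48. Tfap2a, an AP-2 factor of surface ectoderm, had a level of 1.67 in transfected and −3.16 in mock Per2m/m cells, 28.5-fold higher. Grhl2, a Grainyhead-like factor of epithelium, was at least 3.25-fold higher, and the splicing regulator Esrp2 was at least 8.69-fold lower and Foxn1, a factor of thymus and hair follicle epithelium, at least 2.19-fold lower. Summed on the linear scale, where the brightest probes set the sum, the list came to 92.8 times the 75th percentile in transfected and 26.1 in mock Per2m/m cells. Klf4, a Krüppel-like factor of the skin barrier, carried most of the difference, with levels of 6.11 and 2.71, and without it the sums were 23.5 and 19.5.

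No partner of Blnk was counted as higher, and some were dim on both Per2m/m arrays and have no value there. Of 15 B cell receptor adaptors and kinases 9 were measurable, 0 were higher and 4 lower. Syk, the kinase that phosphorylates Blnk, had a level of −6.38 in transfected and 1.47 in mock Per2m/m cells, at least 66.9-fold lower, and Vav1, an exchange factor that binds Blnk, was at least 6.33-fold lower. Of 9 B cell markers 3 were measurable, Cr2, 2.17-fold higher, Cd22, 4.64-fold lower, and Cd79a, at −3.48 in transfected and −3.28 in mock Per2m/m cells, and Ms4a1, Pax5 and Cd79b were dim on all 6 arrays. The summed level of the list was 0.501 in transfected and 1.38 in mock Per2m/m cells, and without Cd22 the sums were 0.242 and 0.173.

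Receptors that Sigirr dampens were mixed. Of 26 Toll and IL-1 receptors and adaptors 22 were measurable, 5 were higher and 3 lower, with Tlr2 19.5-fold and Tlr4 5.7-fold higher, Irak3, which restrains Toll signalling, at least 7.8-fold lower and Tlr1 5.21-fold lower. Of 10 IL-1 family ligands 3 were measurable, and Il18 was 17.6-fold higher while Il1a and Il1b were dim on all arrays. In purine breakdown and salvage, 14 of 18 genes were measurable, 1 was higher, Ada at 2.03-fold, and 4 were lower, among them Nt5e at least 37.9-fold and Gda at least 7.75-fold.

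**Figure D3:**
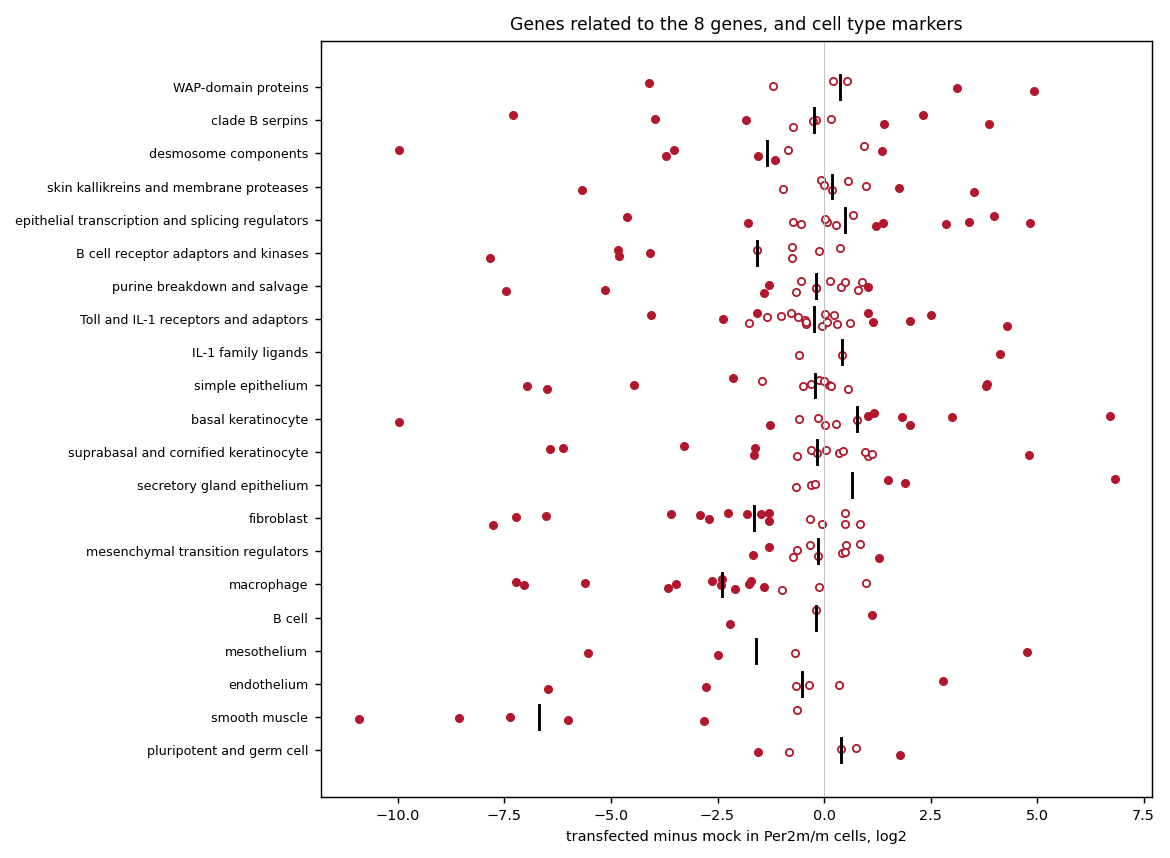
Each point is a gene of a list, placed at its Per2m/m response (x axis, transfected minus mock, log2), filled at 2-fold or more with the brighter array well above background and open otherwise, with a bar at the list's median. The medians, which include genes dim on both Per2m/m arrays, run from −6.68 for smooth muscle to 0.78 for basal keratinocyte markers.

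Markers of whole epithelia did not follow the 8 genes as a block. Of 22 simple epithelium markers 14 were measurable, 2 were higher and 4 lower. Krt8 and Cdh1, a keratin and the epithelial cadherin, were at least 5.24-fold and at least 3.24-fold higher. Krt19 and Krt7 were at least 87.9-fold and at least 22.9-fold lower, and Epcam was dim on all arrays. The summed level of the list was 4.47 in transfected and 8.32 in mock Per2m/m cells. Without Spint2, the brightest gene of the list in transfected Per2m/m cells, the sums were 0.797 and 5.85.

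Of 21 basal keratinocyte markers 13 were measurable, 6 were higher and 2 lower. Krt6b, counted as higher, had a bound of only 1.68-fold. Krt14, the keratin of basal keratinocytes, had a level of 2.57 in transfected and −4.13 in mock Per2m/m cells, 104-fold higher. Col17a1, a hemidesmosome collagen, was at least 6.17-fold higher. Perp was at least 240-fold and the integrin subunit Itga6 2.4-fold lower. Krt5, at 1.11-fold lower, and Trp63, at 1.22-fold higher, differed by less than 2-fold. Krt15, Krt17 and Krt6a were dim on all arrays. The summed level of the list was 36.7 in transfected and 53.8 in mock Per2m/m cells. Without Itga6, the brightest gene of the list in transfected Per2m/m cells, the sums were 23.3 and 21.5.

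Of 18 suprabasal and cornified keratinocyte markers 15 were measurable, and 1 was higher, Tgm5 by at least 6.87-fold, against 5 lower, among them Lor by at least 24.1-fold and Krt10 by at least 16.2-fold. The summed level was 4.91 in transfected and 6.31 in mock Per2m/m cells. Of 12 secretory gland markers 6 were measurable, 3 were higher and 0 lower. The water channel Aqp5 was 113-fold and the immunoglobulin receptor Pigr 3.74-fold higher. The measurable markers not counted differed by less than 2-fold, and Csn1s1, Csn2, Wap and Ltf were dim on all arrays. The summed level was 201 in transfected and 34.3 in mock Per2m/m cells, with 44.0 to 54.6 on the other 4 arrays. Without Aqp5 the Per2m/m sums were 111 and 33.5.

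The labelled cell type was also read from its markers. All 16 fibroblast markers were measurable, with 14 of them well above background in transfected and 16 in mock Per2m/m cells, and 0 were higher and 11 lower. Thy1 was 217-fold and Postn, a matrix protein, 151-fold lower. The summed level of the list was 1560 in transfected and 1590 in mock Per2m/m cells. Without Col1a2, its brightest gene in transfected Per2m/m cells, the sums were 911 and 1130. Smooth muscle markers, which contractile fibroblasts carry, had 0 higher and 5 of 6 lower and summed to 25.0 in transfected and 1590 in mock Per2m/m cells, with Cnn1 1940-fold and Tagln 380-fold lower. Of 15 macrophage markers, 0 were higher and 12 lower, with summed levels of 18.3 and 57.9, and Ctss and Tyrobp were at least 37.1-fold and at least 27.8-fold lower. Wild type cells shared part of this, with 2 macrophage markers higher and 10 lower, against 7.53% and 11.8% of all genes. There Ctss was at least 21.6-fold and Tyrobp at least 14.7-fold lower. Of the fibroblast markers 2 were higher and 7 lower in wild type cells, and 1 was higher and 1 lower in Clk/Clk cells.

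The remaining lists had few measurable genes or small counts. Of 11 mesenchymal transition regulators 1 was higher, Snai2 at 2.44-fold, and 2 were lower, Snai1 at 3.18-fold and Prrx1 at 2.46-fold. Mesothelial markers gave 1 higher, Msln at 27.2-fold, and 2 lower of 4 measurable, with summed levels of 33.5 in transfected and 2.12 in mock Per2m/m cells, and of 0.12 and 0.895 without Msln. Endothelial markers gave 1 higher and 2 lower of 6, with sums of 10.8 and 9.2, and of 0.511 and 1.09 without Kdr. Pluripotent and germ cell markers gave 1 higher and 1 lower of 5. Their sums were 0.694 and 0.69, and 0.292 and 0.45 without Tdgf1. The part of any of these cell types in the levels of the 8 genes was not tested.

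The genes whose pattern over the 6 arrays was most like that of the 8 were found by the root mean square distance, in log2 units, between a gene's centred profile and the median centred profile of the 8, with dim levels raised to the array's lowest level well above background. The nearest 8 non-members were Asic1, an acid-sensing ion channel, at 0.36, Krt14 at 0.39, Syt8 at 0.41, Hkdc1 at 0.45, Scara5 at 0.45, Ap3b2 at 0.47 and the predicted genes Gm15085 at 0.49 and Gm773 at 0.50, both on the X chromosome. Their Per2m/m responses ran from 104-fold for Krt14 and at least 95.5-fold for Hkdc1 to at least 156-fold for Syt8. All 8 were bright in transfected Per2m/m cells and low elsewhere, and 4 of them, Hkdc1, Ap3b2, Gm15085 and Gm773, were well above background on no other array.

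Among the 8 genes themselves, Serpinb5 and Trim29 were closest to each other, at 0.22, since both were at the floor on the same 5 arrays. Cdsn and Sigirr followed at 0.69, both with transfected wild type cells second brightest. Bnc1 and Xdh, which shared high Clk/Clk levels, were 1.41 apart and were each furthest from the median profile of the 8, at 3.01 and 2.08. The most unlike pair was Slpi and Bnc1, at 4.36.

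**Figure D4:**
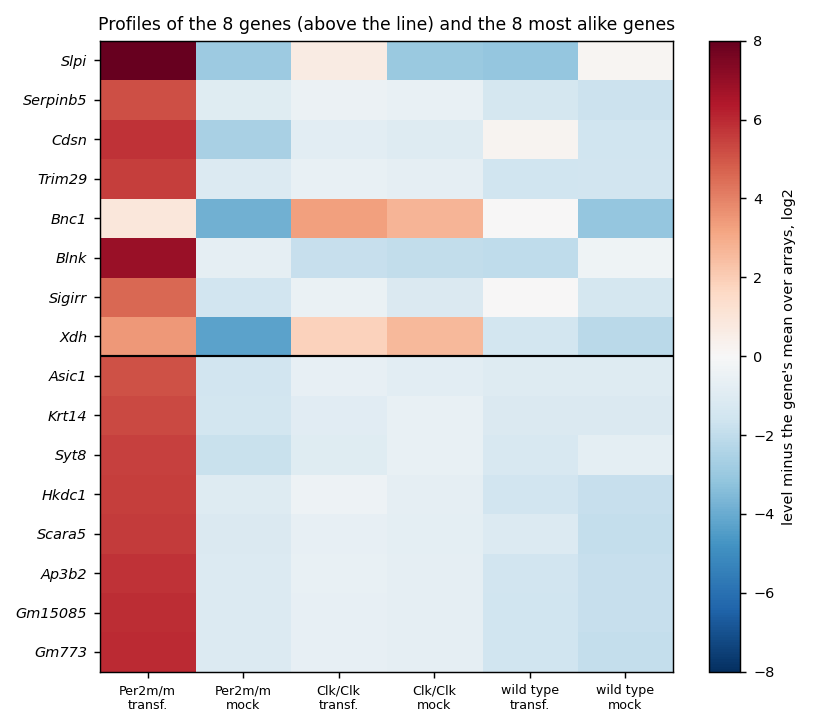
Each square gives the level of a gene less its own mean over the 6 arrays (colour, log2, with dim levels raised to the floor), with the 8 genes above the line and the 8 most alike genes below it. The lower 8 show the transfected Per2m/m column alone in red, while Bnc1 and Xdh also have red squares in both Clk/Clk columns.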

How the data were processed

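Total RNA was labelled with Cy3 and hybridised to 6 single-colour Agilent arrays, per the labels' protocols. The deposited scanner files hold the linear intensity of each spot, background-subtracted and detrended per the file headers, which name Feature Extraction 10.7.1.1. The submitters' processing notes name version 9.5.1.1. The authors' deposited table also holds intensity, with a median of 23.8 in each column and correlations of at least 0.998 with the own array. It looked quantile-normalized and not centred by gene, and served as an alternative.

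Computed here, spots of a probe were averaged after leaving out controls and 85 to 125 outlier spots per array, of 59305. Log2 signals were scaled to the 75th percentile. Of 55681 probes 24300 stayed unnamed and were not used here, and probe names came from RefSeq accessions (27235), symbols (3581) or synonyms (565). Of 22328 named genes 16718 had a probe well above background on at least 1 array, and the brightest such probe represented the gene. Repeated spots varied by an SD of 0.05 to 0.06 (log2), and the scanner software's own error for members well above background was 10.0% to 20.1%, which covers spot noise only. No spot was saturated. All arrays lay on 1 slide and were scanned on 1 day, with the Per2m/m arrays in slide row 2 and the others in row 1.

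Samples were grouped by title, with 1 array per group. Differences are log2 differences of arrays, counted at 2-fold. A gene dim on an array gives an "at least" fold against the lowest level well above background there. Such a bound holds for the reported processing and can be lower under an alternative. limma 3.58.1 in R 4.3.3 gave the only tests and was tested on simulated data. In the fit on 5 arrays the mock Per2m/m array adds no residual degree of freedom. The error behind a p-value is then how far the wild type and Clk/Clk responses disagree, moderated by limma over all genes. It is not a spread between samples of a group. Other steps used Python 3.11.15, numpy 2.4.6 and pandas 2.3.3, and figures matplotlib 3.10.9. The 8 genes, the 21 lists and the tests were chosen with earlier results of these data known. Named genes are the members, and of each list up to 2 at either end of the Per2m/m response and up to 4 defining genes. The 8 most alike genes, and sex-linked genes as a check, are also named. Dsc2, Klf4, Cd79a, Krt5, Trp63, Kdr and Tdgf1 were named after their values were seen. So were Csn1s1, Csn2, Wap, Ltf, Spint2, Col1a2, Krt6b, Lum, Laptm5 and Uox. Alternatives were another background correction (normexp with an offset of 50), scaling to the median, quantile normalization, the authors' table, the mean over probes, stricter and looser background filters and a trend in limma. Probe coordinates are mm9, per the file headers. Promoters are RefSeq's, GRCm38.p6.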

Additional observations from a re-analysis of the deposited data

Results flagged for a closer look

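Slpi and Blnk responded in opposite directions in different genotypes, by at least 2-fold on each side. The Slpi response was 11.14 in Per2m/m cells and −3.28 in wild type cells, a difference of 14.42 on the log2 scale. In Clk/Clk cells it was 3.67, which is 6.95 above wild type. The Blnk response was 7.59 in Per2m/m cells and −1.65 in wild type cells, a difference of 9.24, and with normexp background correction its wild type response was −0.81, under 2-fold. With 1 array in each group these differences were not tested.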

How the results depend on the processing

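The labels give no replicate numbers to pair arrays by. The limma fit pairs the arrays of a genotype through its genotype term, and each group held 1 array, so none was left out within a group. Under normexp background correction, the count of members at least 2-fold lower was 1 in wild type cells after transfection (2 as reported, Blnk being lost), 1 in mock Per2m/m against mock wild type cells (4 as reported) and 1 in mock Clk/Clk against mock wild type cells (2 as reported). Requiring both arrays well above background gave 5 members past 2-fold in Per2m/m cells, against 8, by construction, since dim mock values are then not counted. The cause of the other shifts was not tested. The other 61 counts under an alternative were within 1.5 times the reported ones, and limma's count of 0 genes for transfected minus mock stood under each alternative run, with lowest adjusted p-values of 0.691 to 1.0 and 591 to 948 genes at an unadjusted p under 0.05. The 61 counts are not independent checks. Those of the Per2m/m response were fixed by the choice of the genes, and the authors' table gave nearly the same values as quantile normalization. No member difference counted at 2-fold changed direction. Trim29, not well above background on either array and so not counted, was −1.22 in mock Clk/Clk against mock wild type cells and 0.17 with normexp. The Per2m/m response stayed between 4.24 and 8.46 for Serpinb5, 4.63 and 8.96 for Trim29, 2.60 and 5.66 for Bnc1 and 9.69 and 11.42 for Slpi, and the margin of Xdh over the next array between 0.56 and 1.53, so that with scaling to the median 7 members were at least 2-fold above every other array, not 6. Scaling to the median moved the median response of all genes to 0.40 in Per2m/m cells (0.12 as reported) and to 0.32 in wild type cells (0.00), with 4338 genes higher and 3012 lower in Per2m/m cells (3131 and 3466) and 2425 and 1416 in wild type cells (1259 and 1971), and normexp gave 2321 and 2279 in Per2m/m cells.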
